A study of Mus musculus with 20 samples.

Results

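Kindlins and talins are cytoplasmic adaptors that bind the short tail of integrin beta subunits and switch integrins into their ligand-binding state. The transcripts described here encode all 3 kindlins of the mouse (Fermt1, Fermt2 and Fermt3), both talins (Tln1 and Tln2), the beta subunits Itgb1 and Itgb6, and the alpha subunits Itgav and Itga2. The 9 genes were chosen by name, with earlier results of these data known. The share of them that passes a test therefore describes the set and does not test it. All 9 were found among the 23432 gene symbols counted in the RNA libraries. All 9 also passed the filter on low counts in both models fitted.

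As background, an integrin is a pair of an alpha and a beta subunit. The beta1 subunit pairs with many alpha subunits, among them alpha2 to form a collagen receptor, while alphav pairs with beta6 in epithelia to bind fibronectin and the latent form of TGF-beta. Kindlin-1, the product of Fermt1, is the kindlin of epithelia, and its loss in humans causes the skin fragility of Kindler syndrome. Kindlin-2 (Fermt2) is made by most adherent cells, and kindlin-3 (Fermt3) belongs to blood cells. Talin-1 is broadly made, and talin-2 is best known from muscle and brain.

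The study compared mouse back skin with and without the ΔN form of p63 (Trp63), the transcription factor that establishes stratified epithelium. All 12 RNA libraries came from animals that carry a ΔNp63-GFP knock-in (KI), so no group had an unaltered Trp63 locus. The groups were KI-Het epidermis at embryonic day 9 (E9), KI-Het epidermis at E13, KI-KO epidermis at E13 and KI-Het dermis at E13, with 3 libraries in each. Skin was digested with collagenase and trypsin, and cells were sorted: epidermal cells for GFP, dermal cells for surface CD140a (encoded by Pdgfra). The epidermal cells of the KI-KO were thus defined by the activity of the targeted locus itself. Epidermal libraries were made from total RNA depleted of ribosomal RNA and dermal libraries from RNA selected with oligo(dT), so tissue and library preparation cannot be told apart. The labels do not say whether replicates came from separate embryos or pools, so the spread behind each p-value is that between libraries and may be technical.

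The epidermal libraries held 3373819 to 7777808 counts in genes and the dermal libraries 16931664 to 33386872. Levels are given as CPM (counts per 1e+06 gene counts of a library), with all 12 libraries scaled together by TMM. They are compared between groups for 1 gene, never between genes, because transcript lengths were not used here. Trp63 checked the labels: it stood at 519.9, 612.5 and 454.7 CPM in the E13 Het epidermis and at 23.1, 25.0 and 20.4 CPM in the E13 KO. The log2 fold change was -4.54 ± 0.28 (SE, n = 3 per group; edgeR quasi-likelihood test, adjusted p = 1.54e-06). The 10 epidermal markers summed to 1980 to 2222 CPM at E9, 3476 to 4831 in the E13 Het, 3124 to 4162 in the KO and 6.07 to 9.78 in dermis. These sums hold markers that went opposite ways: Krt5 was at 1228 ± 171 CPM in the E13 Het and 34.5 ± 13.2 CPM in the KO (SD, n = 3; adjusted p = 9.36e-06), and Epcam at 205.7 ± 18.7 and 473 ± 47.5 CPM (adjusted p = 0.00031). The other 8 markers were not called between these groups, among them Krt8 and Krt18, whose SD exceeded the mean in the E13 Het. Krt14, also uncalled, was at 764 ± 216 CPM in the E13 Het and 15.0 ± 19.6 CPM in the KO (adjusted p = 0.121). Krt15, uncalled too, was at 244 ± 25.9 and 38.7 ± 3.83 CPM (adjusted p = 0.358). Of the 10 markers, 5 had an unadjusted p under 0.05 by edgeR. DESeq2 called 1 higher and 3 lower in the KO, and limma voom 3 and 3. In bulk libraries, fewer cells of a type and less RNA per cell cannot be told apart.

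In the E13 KO epidermis, transcripts of kindlin-1 and of the integrin alpha2 subunit were lower than in E13 Het epidermis, and those of talin-2 were higher. The Itga2 call was lost when any 1 of the 6 libraries compared was left out, while those of Fermt1 and Tln2 held. Kindlin-2, talin-1, Itgb1, Itgb6 and Itgav did not pass the test, and Fermt3 was too sparse to judge. From E9 to E13 in Het epidermis, Fermt2 and Tln2 fell and Itga2 rose, while Fermt1 showed no detectable change. Levels in each library are plotted for all 9 genes.

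**Figure D1:**
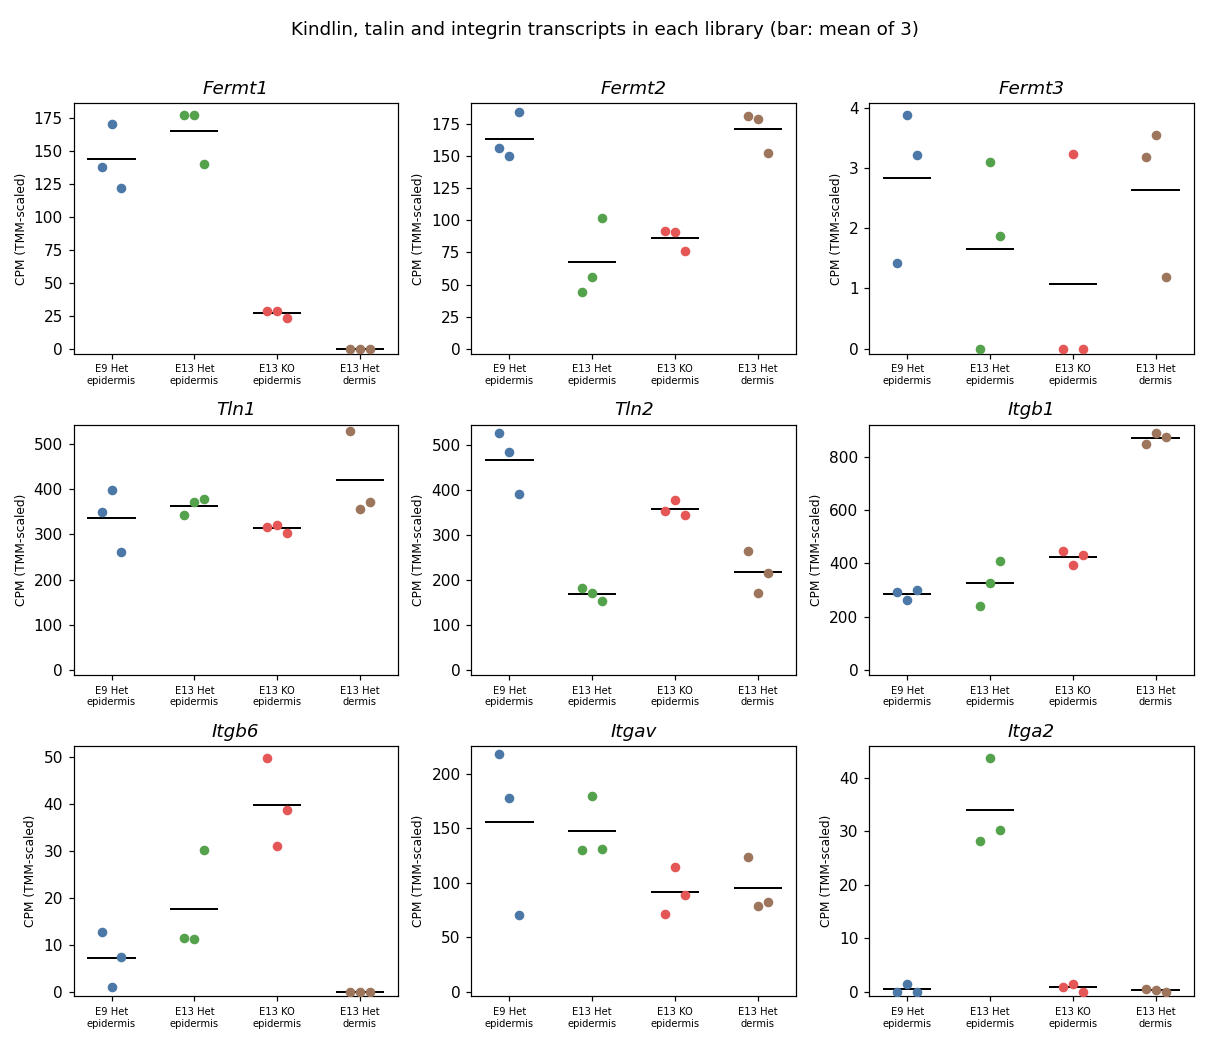
Transcript level of each of the 9 genes (y axes, TMM-scaled CPM, each with its own range from 0) in every library of the 4 groups (x axes; points are libraries and bars the mean of 3). Fermt1 is low in the 3 KO libraries and near 0 in dermis, Itga2 stands above 28 CPM only in E13 Het epidermis, and Tln2 is lowest among the epidermal groups in E13 Het.

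The promoters of Fermt1 and Itga2 are shown because these are the members whose transcripts were lower in the KO than in the E13 Het. They were picked after that was known. Each sequence is the 250 bases before the gene's start in RefSeq's GRCm38.p6 annotation, written 5′ to 3′ along the gene's own strand, which is the minus strand for both.
Fermt1, chr2:132946037-132946286: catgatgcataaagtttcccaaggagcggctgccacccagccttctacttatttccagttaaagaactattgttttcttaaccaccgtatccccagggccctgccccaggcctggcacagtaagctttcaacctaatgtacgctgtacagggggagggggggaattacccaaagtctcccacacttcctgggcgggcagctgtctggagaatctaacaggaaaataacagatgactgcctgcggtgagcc
Itga2, chr13:114932101-114932350: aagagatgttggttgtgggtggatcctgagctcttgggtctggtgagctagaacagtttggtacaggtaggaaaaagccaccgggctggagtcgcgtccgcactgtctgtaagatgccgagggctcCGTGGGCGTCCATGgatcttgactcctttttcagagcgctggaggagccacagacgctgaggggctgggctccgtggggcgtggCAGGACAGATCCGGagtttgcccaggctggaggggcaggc
Capitals mark matches to CNNGNNNNNNCNNG, a pair of the core letters of p53-family sites, which reads the same on both strands. Itga2 holds 2 such matches, starting 124 and 40 bases before the start, and Fermt1 holds none. Of 32851 mouse promoters of the same length, 63.5% hold at least 1, so the motif is common. An exact p53-family half-site is in 7.13% of those promoters and in none of the 9 promoter windows found for 8 of the genes (Itgb6 has 2 windows, and Tln2 has no entry). A match is a description of letters, and no binding data were analysed here.

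Fermt1 lies on chromosome 2 at 132904177-132946036 (gene spans from the RefSeq GRCm38.p6 table, the same build as the mm10 used for alignment). Its level was 138.1, 170.4 and 121.9 CPM at E9, 177.2, 177.1 and 140.1 CPM in the E13 Het, and 28.8, 28.7 and 23.0 CPM in the KO. The 2 Het groups overlapped, and every KO library was far below every Het library. Between KO and E13 Het, 3 of the 9 genes passed the test, against 2.20% of the 13052 genes tested (0.835% higher, 1.36% lower). Fermt1 had the smallest adjusted p of the 9 (log2 fold change -2.63 ± 0.21, adjusted p = 7.48e-06). Against E9, the KO level was also lower, by 5.35-fold (log2 fold change -2.42 ± 0.21, adjusted p = 7.74e-06). The E13 Het did not differ detectably from E9 (log2 fold change 0.21 ± 0.20, adjusted p = 0.664). These comparisons share libraries and are therefore not independent of each other. Leaving out any 1 library kept both Fermt1 calls, with log2 fold changes of -2.72 to -2.55 against E13 Het. In dermis the 3 libraries held 1 Fermt1 count in total, against 3037 counts in E13 Het epidermis. The ratio after scaling was 9373 (exact 95% interval 1681 to 370335, for counting error only).

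Fermt2, the broadly made kindlin (chromosome 14, 45458792-45530310), was lower at E13 than at E9. Its level was 156.2, 150.3 and 184.2 CPM at E9 and 44.3, 55.8 and 101.8 CPM in the E13 Het epidermis. The groups did not overlap, although E13 Het replicate 3 stood well above the other 2. The fall from E9 to E13 was 2.42-fold (log2 fold change -1.27 ± 0.26, adjusted p = 0.00806), and it was 1 of 3 members called among 9, against 7.29% of all genes tested (4.77% higher, 2.53% lower). Fermt2 was still called without any single library. The call was lost when each group was left without its library of fewest genes detected (log2 fold change -0.96, adjusted p = 0.0714). In the KO, Fermt2 stood at 92.0, 91.0 and 76.3 CPM, inside the range of the E13 Het libraries (log2 fold change 0.35 ± 0.26, adjusted p = 0.713). The KO was 1.90-fold below E9 (log2 fold change -0.92 ± 0.26, adjusted p = 0.0454), where again 3 of 9 members were called, against 7.67% of all genes tested (4.62% higher, 3.05% lower). That call did not hold without any 1 of the 6 libraries, with adjusted p from 0.0919 to 0.142. It was also lost under 3 of 8 other settings, with adjusted p up to 0.251. These were raw library totals (0.0524), a replicate block, and both groups without their library of fewest genes detected. Dermal libraries held 181.1, 178.6 and 152.6 CPM, above all E13 Het epidermal libraries. Fermt2 was 2.57-fold lower in E13 Het epidermis than in dermis (log2 fold change -1.36 ± 0.30, adjusted p = 0.0101). Ordered by mean, dermis (170.8 CPM) and E9 epidermis (163.6 CPM) overlapped, as did the KO (86.4 CPM) and the E13 Het (67.3 CPM).

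Fermt3, the kindlin of blood cells (chromosome 19, 6998958-7019469), was near the limit of detection in every group. It had 10, 22 and 14 counts at E9, 0, 25 and 11 in the E13 Het, 0, 24 and 0 in the KO, and 55, 41 and 33 in the deeper dermal libraries. On the CPM scale no library passed 3.88, and the 4 groups overlapped. No comparison passed the test (adjusted p from 0.77 to 0.964), and with SE of 1.47 to 2.05 on the log2 scale only very large changes would have been detectable. Fermt3 also overlaps Trpt1, which had up to 224 counts in a library, so some reads could belong to either gene. The 12 leukocyte markers summed to 4.26 to 8.97 CPM at E9, where 8 of them, Ptprc included, were at 0. Their sum was 37.3 to 49.6 CPM in the E13 Het, 5.95 to 45.8 CPM in the KO and 42.5 to 86.9 CPM in dermis. Much of it was Cd68 alone, at 32.3 ± 10.7 CPM in the E13 Het and 20.0 ± 14.8 CPM in the KO (SD, n = 3). In E13 Het replicate 1 and in KO replicates 1 and 3, 2 of the 12 markers had any count. In replicate 2 of both groups 11 did. The 10 platelet and megakaryocyte markers summed to 3.52 to 5.11 CPM at E9 and 10.6 to 31.2 CPM in the E13 Het. The platelet sum was 8.80 to 17.3 CPM in the KO and 7.06 to 12.7 CPM in dermis. Pf4 was at 0 in all 3 epidermal groups. Ppbp held 120 counts in the E13 Het and 0 at E9 and in the KO. Itga2b was at 2.32 ± 2.34 CPM at E9, 10.5 ± 1.99 CPM in the E13 Het and 10.2 ± 4.42 CPM in the KO (SD, n = 3).

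Of the talins, Tln2 passed the test for age and for genotype and Tln1 passed none. Tln1 (chromosome 4, 43531513-43562583) stood at 349.4, 398.7 and 260.3 CPM at E9, 342.2, 370.5 and 378.0 CPM in the E13 Het, and 315.2, 320.7 and 303.6 CPM in the KO. The KO libraries lay below the E13 Het libraries, by less than the test could call (log2 fold change -0.23 ± 0.16, adjusted p = 0.672). Neither E13 group differed detectably from E9 (adjusted p = 0.778 for Het and 0.789 for KO). In dermis Tln1 was at 528.9, 356.7 and 371.4 CPM, overlapping the epidermal values (log2 fold change of E13 Het epidermis against dermis -0.22 ± 0.18, adjusted p = 0.373).

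Tln2 (chromosome 9, 67217085-67634045) was at 526.0, 483.6 and 390.0 CPM at E9, 182.2, 170.6 and 152.5 CPM in the E13 Het, and 353.0, 378.3 and 343.7 CPM in the KO. The 3 epidermal groups did not overlap, with E9 highest, KO between and E13 Het lowest. Tln2 fell 2.76-fold with age in Het animals (log2 fold change -1.46 ± 0.15, adjusted p = 3.15e-05). The KO level was 2.11-fold above that of the E13 Het (log2 fold change 1.08 ± 0.15, adjusted p = 0.00108). Both calls held without any 1 library, with adjusted p up to 0.000323 for the age comparison and 0.00523 for the genotype comparison. The step from E9 to KO did not pass (log2 fold change -0.39 ± 0.15, adjusted p = 0.132), although DESeq2 (adjusted p = 0.027) and limma voom (adjusted p = 0.0105) called it. Dermal Tln2 was 265.0, 171.8 and 214.4 CPM and overlapped the epidermal E13 Het values (log2 fold change -0.38 ± 0.18, adjusted p = 0.132).

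Markers of other cell types were measured in the same libraries. The 10 neuron markers summed to 45.5 to 89.3 CPM at E9, 1.81 to 34.5 CPM in the E13 Het, 97.8 to 178 CPM in the KO and 168 to 235 CPM in dermis, and only Dcx in dermis was at 0 throughout a group. The 10 skeletal muscle markers summed to 3.83 to 99.1 CPM at E9, 0 to 7.33 CPM in the E13 Het, 5.31 to 9.02 CPM in the KO and 3.99 to 7.58 CPM in dermis. The 99.1 CPM came from E9 replicate 4 alone, the other 2 E9 libraries having 3.83 and 7.75 CPM, and Myf6 was at 0 in every group. Between KO and E13 Het, the test called 1 of 8 neuron markers tested (Map2, higher in KO, adjusted p = 0.0408). An unadjusted p under 0.05 was found for 3 of the 8, and their median log2 fold change was 2.17, against 0.03 over all genes. The test called 0 of 3 muscle markers (0 at an unadjusted p under 0.05) and 0 of 12 mesenchyme markers (1 at an unadjusted p under 0.05). DESeq2 called 3 neuron, 0 muscle and 1 mesenchyme marker there, and limma voom 1, 0 and 1. From E9 to E13 in Het epidermis, edgeR called 0 of 8 neuron and 0 of 3 muscle markers, with 1 of each at an unadjusted p under 0.05, and 3 of 12 mesenchyme markers, all higher at E13. DESeq2 called 1 neuron, 0 muscle and 5 mesenchyme markers for age, and limma voom 0, 0 and 5. The sums of 12 dermal mesenchyme markers were 318 to 370.1 CPM at E9, with Twist2, Lum and Dcn at 0, 949.7 to 2177 CPM in the E13 Het and 1759 to 2911 CPM in the KO. In the dermis itself they reached 33788 to 45411 CPM. The part of these cells in the values of Tln2, Fermt2 and Itgb1 was not tested.

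Ratios of counts within a library need no scaling between libraries. Transcript lengths were not used, so only their differences between groups can be read, not which gene of a pair was more abundant. The log2 ratio of Fermt1 to Fermt2 counts was -0.20 ± 0.39 (SD, n = 3) at E9, 1.37 ± 0.81 in the E13 Het and -1.69 ± 0.03 in the KO. In plain ratios this was 0.884, 1.13 and 0.662 at E9, 3.99, 3.17 and 1.38 in the E13 Het, and 0.314, 0.316 and 0.303 in the KO. The KO libraries were all below E9 and the E13 Het libraries all above it. The log2 ratio of Tln1 to Tln2 was -0.48 ± 0.18 at E9, 1.11 ± 0.20 in the E13 Het, -0.19 ± 0.04 in the KO and 0.95 ± 0.14 in dermis. The KO lay between the 2 Het epidermal groups, and the difference was -1.31 from the E13 Het and 0.29 from E9. The 3 epidermal groups did not overlap in either ratio. With 3 libraries against 3, an exact permutation test cannot go below p = 0.1, the two-sided value of each of these 6 comparisons, or 0.12 adjusted over 12 ratio comparisons. The Tln1 to Tln2 ratio of E13 Het epidermis overlapped that of dermis (difference 0.16, exact permutation p = 0.4).

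**Figure D2:**
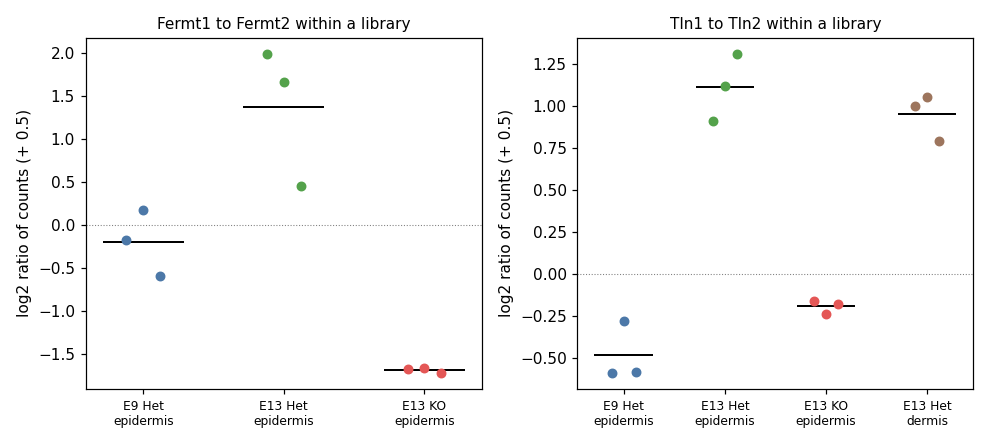
Log2 ratio of counts within each library (y axes, 0.5 added to each count; the dotted line marks equal counts) for Fermt1 to Fermt2 in the 3 epidermal groups and Tln1 to Tln2 in all 4 groups (x axes; points are libraries). Among the epidermal groups both ratios are highest in the E13 Het, and for the talins dermis overlaps the E13 Het. The KO lies below E9 for the kindlins and between the 2 Het epidermal groups for the talins.

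Among the beta subunits, Itgb1 (chromosome 8, 128685654-128733579) passed the test in no comparison within the epidermis. It stood at 294.7, 262.6 and 300.5 CPM at E9, 240.3, 327.5 and 407.5 CPM in the E13 Het, and 448.5, 394.2 and 432.7 CPM in the KO. The E13 Het libraries spread over the whole E9 range and reached the KO range. The log2 fold change was 0.38 ± 0.17 for KO against E13 Het (adjusted p = 0.409) and 0.19 ± 0.17 for E13 Het against E9 (adjusted p = 0.636). The KO libraries were all above the E9 libraries (log2 fold change 0.57 ± 0.17, adjusted p = 0.0573). This last difference was called under 5 of 8 other settings: DESeq2 (adjusted p = 0.00851), limma voom (0.00673), no filter on low counts (0.0371), the 2 groups fitted alone (0.0148) and raw library totals (0.0325). It was called in none of the 6 refits without 1 library. Dermis held 846.2, 888.2 and 873.1 CPM, and E13 Het epidermis was 2.71-fold lower (log2 fold change -1.44 ± 0.22, adjusted p = 0.00157).

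Itgb6, the epithelial partner of alphav (chromosome 2, 60598292-60722603), was at 12.8, 1.06 and 7.36 CPM at E9, 11.3, 11.1 and 30.2 CPM in the E13 Het, and 49.8, 31.1 and 38.6 CPM in the KO. Every KO library was above every E13 Het library, but by a narrow margin at the edge, and the difference of 2.25-fold did not pass (log2 fold change 1.17 ± 0.67, adjusted p = 0.579). Against E9 the KO was 5.59-fold higher (log2 fold change 2.48 ± 0.70, adjusted p = 0.0459). That call was lost in 5 of the 6 refits without 1 library, with adjusted p up to 0.152, and stayed without E9 replicate 1 (0.0385). It was also lost with a replicate block and when both groups lacked their library of fewest genes detected, with adjusted p up to 0.216. In dermis all 3 libraries had 0 Itgb6 counts, against 317 counts in E13 Het epidermis. At a floor of 3 counts over the dermal group, the epidermal level was at least 326-fold higher (adjusted p = 0.0016). The log2 ratio of Itgb6 to Itgb1 counts was -5.90 ± 1.73 at E9, -4.34 ± 0.56 in the E13 Het and -3.44 ± 0.25 in the KO. The KO ratios lay above those of both Het groups without overlap (exact permutation p = 0.1 for each), and those of the Het groups overlapped (p = 0.2).

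Of the alpha subunits, Itgav (chromosome 2, 83722303-83806917) stood at 218.2, 178.0 and 70.1 CPM at E9, 130.2, 179.7 and 131.4 CPM in the E13 Het, and 71.2, 114.5 and 88.5 CPM in the KO. The KO libraries were all below the E13 Het libraries, and the difference of 1.62-fold did not pass (log2 fold change -0.70 ± 0.34, adjusted p = 0.49). E9 replicate 4 was far below its group, and without it the KO was called lower than E9 (log2 fold change -1.12, adjusted p = 0.0122, against -0.78 ± 0.34 and 0.22 with it). Limma voom (adjusted p = 0.0281) and leaving out the library of fewest genes detected from both groups (0.0309) also gave that call. In dermis Itgav was at 123.5, 79.0 and 82.1 CPM, below all E13 Het epidermal libraries (log2 fold change 0.62 ± 0.23, adjusted p = 0.0642). That difference was called under 4 of 8 other settings: DESeq2 (adjusted p = 0.0314), limma voom (0.0217), RLE size factors (0.0452) and raw library totals (0.0189). It was also called without E13 Het replicate 1 (0.043) and without dermis replicate 1 (0.033).

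Itga2, the alpha subunit of the collagen receptor alpha2beta1 (chromosome 13, 114833081-114932100), stood above 2 CPM only in the libraries of E13 Het epidermis. There it was at 28.3, 43.8 and 30.2 CPM, from 656 counts. The 3 E9 libraries held 8 counts in total (0, 1.41 and 0 CPM), the KO libraries 17 (0.911, 1.48 and 0 CPM) and the dermal libraries 11 (0.405, 0.345 and 0 CPM). E13 Het did not overlap any other group, and the others overlapped each other. Against E9 the rise was 68.8-fold (log2 fold change 6.11 ± 1.33, adjusted p = 0.0111), and it was no longer called without E13 Het replicate 2 (5.90, adjusted p = 0.0674). All 8 E9 counts were in replicate 2, so the size of the fold is poorly fixed: without 1 library the log2 fold change ran from 5.46 to 10.68, the upper value, without E9 replicate 2, resting on the prior count of the fit. In the KO the level was 39.8-fold lower than in the E13 Het (log2 fold change -5.31 ± 1.26, adjusted p = 0.0404). This call was lost without any 1 of the 6 libraries, at log2 fold changes of -6.02 to -4.85 and adjusted p from 0.0693 to 0.216. It was also lost with a replicate block and when both groups lacked their library of fewest genes detected, with adjusted p up to 0.0711. The KO did not differ detectably from E9 (log2 fold change 0.79 ± 1.23, adjusted p = 0.811). E13 Het epidermis was 143-fold above dermis (log2 fold change 7.16 ± 1.02, adjusted p = 0.00121).

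**Figure D3:**
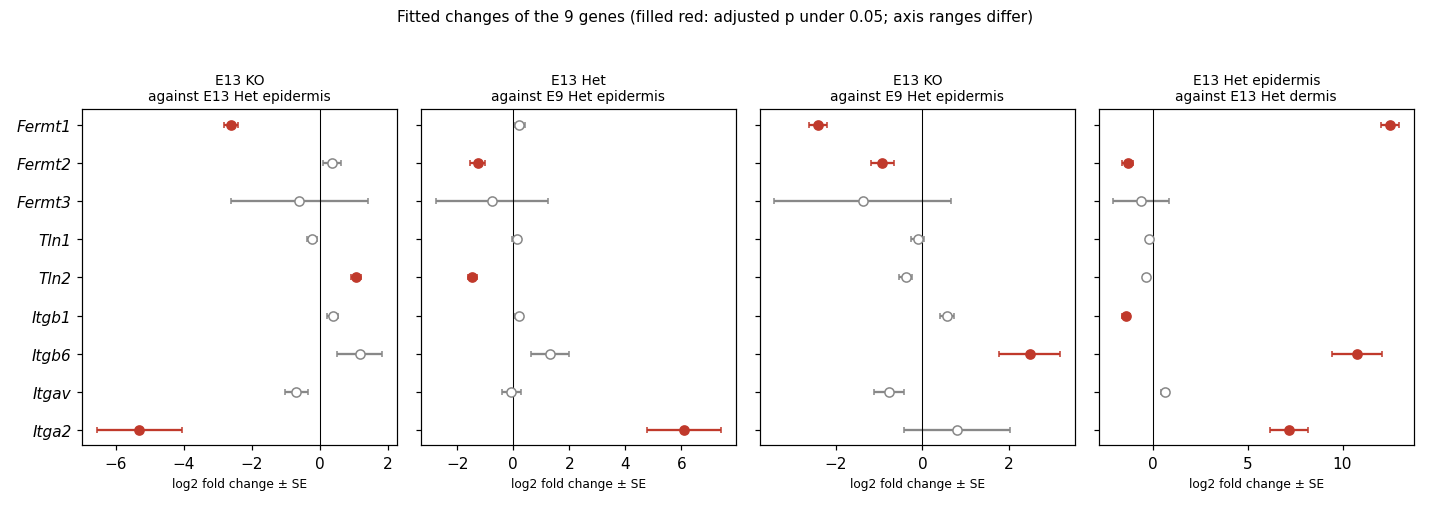
Fitted log2 fold change of each gene (x axes, with its SE as the bar; axis ranges differ between panels) in the 4 comparisons; filled red points have an adjusted p under 0.05. Fermt1, Tln2 and Itga2 are filled for KO against E13 Het, and the points of Fermt1 and Itgb6 against dermis, which holds 1 and 0 counts, depend on the prior count of the fit.

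In counts, the KO against E13 Het comparison had 1 member higher and 2 lower, and 6 of the 9 had groups that did not overlap, as did 20.0% of all genes tested. The median log2 fold change was -0.23 over the members and 0.03 over all genes. From E9 to E13, 1 member was higher and 2 lower, and 3 had non-overlapping groups, against 29.0% of all genes (medians 0.12 and 0.00). Between KO and E9, 1 was higher and 2 lower, and 5 did not overlap, against 32.0% of all genes (medians -0.39 and 0.01). Against dermis, 5 of 9 members were called, 3 higher and 2 lower in epidermis, and 34.7% of the 12975 genes tested were called too (16.5% higher, 18.2% lower). There 6 members had non-overlapping groups, against 56.0% of all genes (medians -0.22 and -0.13). Many genes of all kinds thus differ between these tissues and preparations. With raw library totals in place of TMM, the median of all genes against dermis moved to 0.30, and the calls from 2140 higher and 2364 lower to 3156 and 1438.

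The other genes of integrin adhesion came from lists of integrin subunits, regulators of integrin activation, focal adhesion proteins and matrix ligands. Between KO and E13 Het, edgeR called 2.20% of all 13052 genes tested (0.835% higher, 1.36% lower). Of 11 other alpha subunits tested, 2 fell in the KO against E13 Het and none rose, with a median of -0.07. Both are subunits of laminin-binding integrins: Itga3 went from 273 ± 24.3 to 152 ± 34.0 CPM (SD, n = 3; log2 fold change -0.85 ± 0.18, adjusted p = 0.0195) and Itga6 from 278 ± 64.9 to 145 ± 34.4 CPM (-0.96 ± 0.21, adjusted p = 0.0257). Itga3 lost its call without E13 Het replicate 1 or KO replicate 2, and Itga6 without either of these or KO replicate 3. Of 5 other beta subunits tested, 2 fell and none rose, with a median of -0.95. Itgb4, the hemidesmosomal partner of alpha6, went from 362 ± 83.3 to 67.2 ± 9.25 CPM (-2.44 ± 0.22, adjusted p = 2.26e-05), and Itgb5, another partner of alphav, from 338 ± 30.9 to 191 ± 41.2 CPM (-0.83 ± 0.20, adjusted p = 0.0402). The Itgb4 call held without any 1 library, and the Itgb5 call was lost in 4 of 6 such refits (adjusted p up to 0.146).

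None of 16 activation and inactivation genes tested was called between KO and E13 Het by edgeR, 3 had an unadjusted p under 0.05, DESeq2 called 2 and limma voom 1. The list holds the small GTPases Rap1a and Rap1b that recruit talin and the Kank proteins that bind it. Of 33 focal adhesion proteins tested, edgeR called 2 lower and none higher (median -0.10), and 6 had an unadjusted p under 0.05. DESeq2 called 1 higher and 4 lower there, and limma voom 0 and 4. The 2 edgeR calls were Ppfibp1, a liprin-beta (-1.27 ± 0.20, adjusted p = 0.00258), and Actn1, the actin crosslinker alpha-actinin-1 (-0.69 ± 0.16, adjusted p = 0.0384). Ppfibp1 held without any 1 library and Actn1 was lost in 5 of 6 such refits. Of 26 matrix genes tested, edgeR called 3 higher and 2 lower, with a median of 0.02, and 15 had an unadjusted p under 0.05. DESeq2 called 4 higher and 7 lower, and limma voom 6 and 5, so the balance of rises and falls depended on the tool. The laminin chain Lama5 fell from 864 ± 32.9 to 501 ± 74.9 CPM (-0.80 ± 0.14, adjusted p = 0.0052) and held without any 1 library. Nephronectin (Npnt), a ligand of alpha8beta1, rose (1.16 ± 0.22, adjusted p = 0.012), as did Ltbp1, which binds latent TGF-beta (1.39 ± 0.31, adjusted p = 0.0391). Mfge8, a ligand of alphav integrins, fell (-1.16 ± 0.26, adjusted p = 0.0292). The fifth edgeR call was Tgfb2 (1.26 ± 0.31, adjusted p = 0.0488), which the rule of 4 genes per list leaves out and which was chosen after its values were seen. Without 1 library, Npnt lost its call in 3 of 6 refits, Ltbp1 in 4, and Mfge8 and Tgfb2 in 5 each.

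From E9 to E13 in Het epidermis, edgeR called 7.29% of all genes tested (4.77% higher, 2.53% lower). By edgeR, 1 alpha subunit rose and 2 fell of the 11 tested (median 0.15, also with Itga11 at its bound). DESeq2 called 2 higher and 3 lower there, and limma voom 2 and 2. Itga9 fell from 80.2 ± 26.6 CPM, with a log2 fold change of -3.52 ± 0.75 (adjusted p = 0.0145; lost without E13 Het replicate 2) and Itga3 fell by 0.68 ± 0.18 on the log2 scale (adjusted p = 0.03; lost in 4 of 6 refits without 1 library). Itga11, a collagen receptor subunit of mesenchyme, went from 0 to 92 counts, at least 28.5-fold higher, a call lost in 5 of 6 refits (adjusted p = 0.0463). Of 5 beta subunits, Itgb4 alone was called and rose from 12.4 ± 2.34 to 362 ± 83.3 CPM (4.88 ± 0.25, adjusted p = 3.25e-08; median of the list 0.32). Of 16 activation genes, edgeR called Kank1 alone, which rose (0.97 ± 0.19, adjusted p = 0.0064, median of the list -0.12). DESeq2 called 2 higher and 2 lower of the 16, and limma voom 2 and 1. Of 33 focal adhesion proteins, 3 rose and 2 fell by edgeR (median -0.08), led by Ppfibp1 (1.64 ± 0.20, adjusted p = 0.000129) and the tensin Tns1 (1.86 ± 0.24, adjusted p = 0.000234). DESeq2 called 4 higher and 3 lower, and limma voom 4 and 4. Parvb, a parvin that binds integrin-linked kinase, fell from 42.6 ± 9.97 to 0.774 ± 1.06 CPM (adjusted p = 0.0063). Of 26 matrix genes, 3 rose and 2 fell by edgeR (median 0.20), 5 and 2 by DESeq2, and 5 and 1 by limma voom. The laminin chain Lama3 rose from 4.07 ± 3.33 to 335 ± 52.9 CPM (adjusted p = 0.000451), and Ltbp3 rose (3.33 ± 0.29, adjusted p = 7.23e-06). Fibronectin (Fn1), the ligand of alphavbeta6, fell from 1346 ± 32.0 to 280.1 ± 129.6 CPM (adjusted p = 0.0064; lost without E13 Het replicate 3, at an adjusted p of up to 0.0535).

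**Figure D4:**
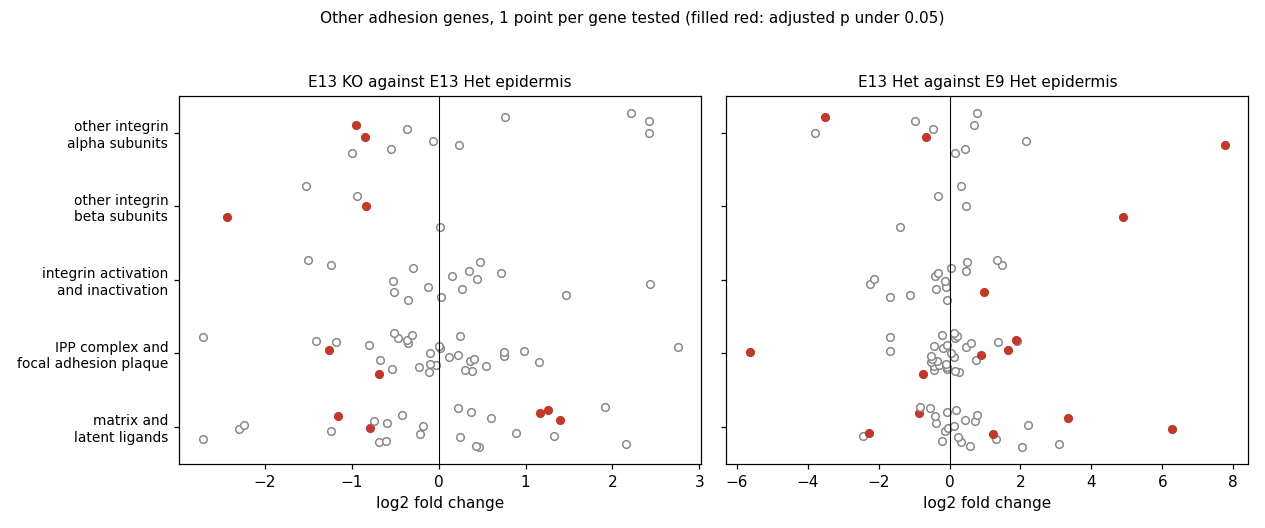
Fitted log2 fold change (x axes) of every tested gene of the 5 adhesion lists (y axis; 1 point per gene) for KO against E13 Het and E13 Het against E9; filled red points have an adjusted p under 0.05. Itgb4 is the lowest filled point for KO against E13 Het and among the highest for age; the point of Itga11, which had 0 counts at E9, depends on the prior count.

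Between KO and E9 epidermis, 1 alpha subunit rose and 2 fell of 11, 1 beta subunit rose of 5, 1 activation gene rose of 16, 2 focal adhesion genes rose and 3 fell of 33, and 5 matrix genes rose and 3 fell of 26. Medians were -0.26, -1.21, -0.14, -0.07 and 0.14 in that order, and 0.01 over all genes. Of all 13052 genes tested, edgeR called 7.67% there (4.62% higher, 3.05% lower). For the alpha subunits DESeq2 called 1 higher and 3 lower, and limma voom 1 and 4. For activation genes these counts were 1 and 1 by DESeq2, and 2 and 1 by limma voom. For focal adhesion genes they were 2 and 4, and 4 and 8, and for matrix genes 6 and 5 by both tools. Itgb4 was higher in the KO than at E9 (2.44 ± 0.23, adjusted p = 1.78e-05), as were Ltbp3 (3.93 ± 0.30, adjusted p = 1.91e-06) and Tns1 (1.49 ± 0.24, adjusted p = 0.00137). Itga3 was lower (-1.53 ± 0.18, adjusted p = 0.000104), as were Actn1 (-1.44 ± 0.16, adjusted p = 7.94e-05) and Lama5 (-0.86 ± 0.14, adjusted p = 0.00132). These 6 calls held without any 1 library, but others in the edgeR counts did not. Itga9 was lost in 6 of 6 such refits. Itga11 (the 1 alpha subunit that rose, from 0 counts at E9), Rap1b (the 1 activation gene called) and Enah were each lost in 5, Parvb in 3, Col3a1 in 2 and Tgfb2 in 1. Between E13 Het epidermis and dermis, 3 alpha subunits were higher in epidermis and 6 lower of 11, and 3 beta subunits higher and 1 lower of 5. One activation gene was higher and 6 lower of 18, 7 focal adhesion genes higher and 10 lower of 31, and 6 matrix genes higher and 9 lower of 26. The medians were -2.25, 3.11, -1.41, -0.30 and -0.45, against -0.13 over all genes. Of all 12975 genes tested, edgeR called 34.7% against dermis (16.5% higher, 18.2% lower). Ilk, the kinase-like partner of the kindlins, was at 45.0 ± 2.95 CPM in E13 Het epidermis and 183 ± 4.08 CPM in dermis (log2 fold change -2.05 ± 0.17, adjusted p = 8.74e-05). Itga6 was higher in epidermis (2.07 ± 0.20, adjusted p = 0.000217) and Itga5, the fibronectin receptor subunit, lower (-2.24 ± 0.19, adjusted p = 0.000102).

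The genes most like each member were ranked by Pearson correlation of log2 CPM over the 9 epidermal libraries among the 13052 genes tested. The libraries fall into 3 groups and share their depth and preparation, so the values are a description. The profile nearest to Fermt1 was that of Col18a1, the collagen XVIII of basement membranes (r = 0.98), followed by Bcam, a laminin receptor (0.98), and Usp31 (0.97). For Fermt2 they were Pctp (0.97), Myh10 (0.97) and Plekha2 (0.96), and for Tln2 Rbms1 (0.95), Chml (0.95) and Cadm1 (0.94). Tln1 was most like Casp6 (0.94), Smu1 (0.92) and Hoxc4 (0.92), and Itgb1 most like Atp6v1a (0.98), Runx1t1 (0.97) and Ifnlr1 (0.97). Itgb6 was most like Arfgef2 (0.97) and Hadhb (0.95), and Itgav most like Gna13 (0.93), Phf6 (0.93) and 5430417L22Rik (0.92). Itga2 went with Has3, a hyaluronan synthase (0.99), A930012L18Rik (0.99) and Crtac1 (0.98). The sparse Fermt3 gave Znf41-ps (0.97), Aass (0.97) and 2410089E03Rik (0.96), which with so few counts is no finding.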

How the data were processed

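RNA was sequenced from 12 libraries of mouse back skin, 3 in each of 4 groups. The deposited files hold read counts per gene symbol for each library. Per the submitters' processing notes, TopHat2, Bowtie2, HTSeq and the mm10 build were used; versions and the strand setting are not given in the sources used here. Summary lines held 48.8% to 63.8% of the total in epidermal and 20.2% to 21.6% in dermal libraries and were left out. Rn45s, ribosomal RNA, took 2.90% to 9.69% and 11.2% to 30.7% of gene counts. Of 23432 symbols, 21570 match RefSeq's GRCm38.p6 table.

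Counts were tested in R 4.3.3 with edgeR 4.0.16 (filterByExpr, TMM, robust quasi-likelihood test). A gene was called where its p, adjusted by Benjamini-Hochberg across the whole table of tested genes, was under 0.05. The 9 epidermal libraries shared 1 fit of group means, and epidermis against dermis was fitted on 6 libraries. SE is the log2 fold change divided by the square root of F. Alternatives were DESeq2 1.42.0, limma 3.58.1 (voom, with quality weights per library), no filter, RLE size factors, other sets of libraries, a replicate block and each library left out. Raw library totals, and leaving both groups without their library of fewest genes detected, were chosen after seeing the data. The procedure was also run on counts simulated with the spread estimated from these libraries and with changes in randomly picked genes. Its outcome is not given here and backs no call of a single member. The 9 genes and all lists were chosen with earlier results of these data known. The text names all 9, Trp63 and, of each list, up to 4 called genes with the smallest adjusted p, and the 3 genes most correlated with each member; 1 of these is not reported here. Leukocyte, platelet, endothelial, muscle, neuron, mesenchyme and epidermal marker sums were taken in CPM; endothelial markers summed to 0 to 36.3 CPM over epidermal and 62.8 to 75.8 CPM over dermal libraries. Intervals and floors (3 counts) cover counting error only, since PCR copies are not independent molecules. Libraries of chromatin accessibility and p63 binding were not analysed here.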

Additional observations from a re-analysis of the deposited data

How the results depend on the processing

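Of 503 values of single members under the alternatives, 448 kept their direction and side of the threshold, 27 lost and 17 gained a call, and 11 changed sign, none of them called. Genes called between KO and E13 Het numbered 287 in the reported fit, 824 by DESeq2 (364 higher, 460 lower), 635 by limma voom (265, 370) and 182 to 348 without 1 library (182 without KO replicate 1). From E9 to E13 they numbered 952, then 1997 by DESeq2 (1166, 831), 1692 by voom (974, 718) and 569 to 812 without 1 library (597 without E9 replicate 1, 569 without E9 replicate 2). Between KO and E9 they numbered 1001, then 2172 by DESeq2 (1229, 943), 2563 by voom (1407, 1156) and 557 to 815 without 1 library (606 without E9 replicate 1, 557 without E9 replicate 2, 592 without KO replicate 1). Against dermis they numbered 4504, and 2934 to 5269 without 1 library (2934 without dermis replicate 3). Members called between KO and E9 numbered 3, then 5 by DESeq2, 6 by voom and 1 to 2 without 1 library; without 1 library they numbered 2 in each refit for KO against E13 Het, 2 to 3 for age and 5 to 6 for dermis. One DESeq2 adjusted p (Itga2, KO against E9) was not given by the tool and is left out. The cause of these differences was not tested.

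Signs changed for Tln1 from E9 to E13 when both groups lacked their library of fewest genes detected (-0.0030) and for Tln1 (0.20) and Tln2 (0.038) against dermis with raw library totals. Without 1 library, log2 fold changes ran from -6.26 to 0.17 for Fermt3 (KO against E13 Het), -0.036 to 0.27 for Tln1, -0.036 to 0.35 for Itgb1 and -0.42 to 0.22 for Itgav (all E13 against E9), -0.26 to 0.042 for Tln1 (KO against E9) and -0.30 to 0.012 for Tln1 (against dermis). No difference between groups in a within-library ratio changed sign with 1 count added or without 1 library. The cause was not tested. Low counts of Fermt3, Itgb6 and Itga2 limit what could be detected for them.

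Replicate numbers are shared between groups, but nothing in the labels ties them to a batch or litter. Deviations of same-numbered libraries correlated at -0.0657 to 0.253, and 1 of 3 libraries correlated best with its own number in each group pair with 3 shared numbers, so the numbers were not taken as pairing. With a replicate block, genes called numbered 576 from E9 to E13 and 540 between KO and E9, and Tln1 from E9 to E13 was -0.047. Itga2 (adjusted p = 0.0635 for KO against E13 Het and 0.0627 for age) and, between KO and E9, Fermt2 (0.13) and Itgb6 (0.128) were not called with the block, and Itgav was (log2 fold change -1.12, adjusted p = 0.0372).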
